A study of Mus musculus with 9 samples.

Results

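Hepatocyte identity is held by a small network of transcription factors that bind one another's regulatory regions as well as the promoters of liver genes. The 9 genes described here encode members of that network: the nuclear receptor Hnf4a, the forkhead factors Foxa1, Foxa2 and Foxa3, the basic leucine zipper factors Cebpa and Cebpb, the cut-homeodomain factor Onecut1 (HNF6), the orphan nuclear receptor Nr5a2 (LRH-1) and the homeodomain factor Prox1. They were taken as a fixed set of 9 symbols from a table of 54532 genes. FPKM, the unit of the table, is a read count set relative to exon length and to a library size. Levels of different genes can be set side by side, subject to the trend on exon length described below. All 9 passed the filter of 0.5 FPKM on the mean over libraries and were among the 11852 genes tested.

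The RNA came from mouse livers in 3 groups of 3 libraries each. One group was Cth knockout mice given 1% betaine in the drinking water, the second was Cth knockout mice on drinking water, and the third was wild-type mice (WT) on drinking water. Cth encodes cystathionine gamma-lyase, an enzyme of transsulfuration, and betaine is a methyl donor for the remethylation of homocysteine. Strain, sex, age, the design of the Cth allele and the duration of betaine are not given in the sources used here, and neither is whether replicates of a group were separate animals, so the p-values measure the spread between libraries. Bulk liver RNA mixes cell types, and a smaller share of hepatocytes cannot be told apart from less RNA per hepatocyte.

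The roles of the families are known from other work. FOXA proteins open compacted chromatin at liver enhancers and bind before other factors in the embryonic endoderm. HNF4A keeps a large share of hepatocyte genes active, and C/EBP-alpha and C/EBP-beta divide metabolic and acute phase control between them. ONECUT1 and PROX1 act in the choice between hepatocyte and bile duct fates and in hepatoblast expansion, and NR5A2 drives bile acid and cholesterol genes.

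Promoter sequences are shown for the 4 genes whose transcripts passed the test in at least one comparison. They cover only part of the regulatory regions of each gene. They are RefSeq sequences of GRCm38.p6, 5′ to 3′ on the gene's strand, ending at the base before a listed start site. For Hnf4a the downstream of its 2 listed starts was used, the promoter active in adult liver, and the first 38 bases were left out because they lie in an annotated exon. Foxa2 has 3 listed starts and Nr5a2 has 2, and the most upstream one is shown for both. The stretches are chr2:163546943-163547154 on the plus strand for Hnf4a, chr2:148046970-148047219 on the minus strand for Foxa2, chr7:19023540-19023789 on the minus strand for Foxa3 and chr1:136960449-136960698 on the minus strand for Nr5a2. Capitals mark motif matches on either strand.
Hnf4a: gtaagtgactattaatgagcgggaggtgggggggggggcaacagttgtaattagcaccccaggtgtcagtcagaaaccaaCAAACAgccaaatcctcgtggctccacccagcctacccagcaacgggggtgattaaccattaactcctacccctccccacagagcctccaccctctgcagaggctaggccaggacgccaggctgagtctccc
Foxa2: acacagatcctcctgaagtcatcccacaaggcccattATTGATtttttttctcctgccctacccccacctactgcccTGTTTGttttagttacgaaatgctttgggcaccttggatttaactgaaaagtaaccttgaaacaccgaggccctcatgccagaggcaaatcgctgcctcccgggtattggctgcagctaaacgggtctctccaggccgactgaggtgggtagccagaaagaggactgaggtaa
Foxa3: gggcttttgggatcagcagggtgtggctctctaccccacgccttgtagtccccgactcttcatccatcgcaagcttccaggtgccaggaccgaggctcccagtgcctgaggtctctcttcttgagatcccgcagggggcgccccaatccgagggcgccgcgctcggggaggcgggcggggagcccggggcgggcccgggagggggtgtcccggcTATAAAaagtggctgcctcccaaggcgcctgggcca
Nr5a2: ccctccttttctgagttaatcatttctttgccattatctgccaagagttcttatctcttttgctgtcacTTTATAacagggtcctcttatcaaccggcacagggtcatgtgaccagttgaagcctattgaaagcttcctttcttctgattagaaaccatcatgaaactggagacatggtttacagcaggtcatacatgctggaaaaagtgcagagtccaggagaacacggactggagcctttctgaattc

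In the Hnf4a stretch the capitals are CAAACA, the reverse complement of the short FOXA core TGTTTG, 132 bases before the start. The Foxa2 stretch holds the ONECUT core ATTGAT 213 bases and TGTTTG 173 bases before the start. Foxa3 has the TATA box letters TATAAA 36 bases before the start, and Nr5a2 has a match to these letters in reverse orientation 181 bases before its start. Of the windows not printed, 1 of Foxa2 has TGTTTG 94 bases and a match to TATAAA in reverse orientation 208 bases before its start. The upstream Hnf4a window has an ONECUT core 59 bases before its start. Prox1 has a match to TATAAA in reverse orientation 34 bases before a start and TGTTTG 120 bases before another. Cebpa has TATAAA 30 bases before its start. Among all 32851 RefSeq windows, which run from 250 bases before to 50 bases after a start, TGTTTG occurred in 18.2%, ATTGAT in 7.54% and TATAAA in 13.6%. In the 14 windows of the 9 genes, TGTTTG occurred in 4, ATTGAT in 2 and TATAAA in 6. The longer FOXA motif TGTTTAC, found in 3.65% of windows, occurred in the Foxa1 window 141 bases before the start. TTGCNNAA, the C/EBP motif, was in 10.8% of windows and in 1 Nr5a2 window. The HNF4 motif CAAAGTCCA and the NR5A motif CAAGGTCA, at 0.475% and 1.56% of windows, had no match in the 14 windows of the 9 genes. The motifs share no letters where they match in the printed stretches. A match describes letters only. Median GC content was 59.8% in the 14 windows, over the 250 bases before each start, and 52.4% over all windows.

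Library depth, recovered from the FPKM values as whole reads, was 15178249 to 17473966 reads in genes per library. The library sizes that the FPKM were set against, recovered the same way, differed from these totals. They were 16066664 to 18528064 reads in betaine-supplemented knockout, 13507385 to 14889206 in knockout and 15287516 to 18087689 in WT libraries. The targeted gene followed the labels: Cth was 0.470 ± 0.269 FPKM in betaine-supplemented knockout livers and 0.544 ± 0.248 FPKM in knockout livers, against 254 ± 33.3 FPKM in WT livers (SD, n = 3 each). Hepatocyte transcripts were abundant in every library, with the 10 hepatocyte markers summing to 36887 to 49965 FPKM in betaine-supplemented knockout livers, 45930 to 58748 FPKM in knockout livers and 51827 to 69679 FPKM in WT livers. One library stood apart. WT replicate 3 had 26.6 FPKM of Xist and no read in 4 Y-linked genes. The other 8 libraries had at most 0.0124 FPKM of Xist and 1511 to 2393 Y-linked reads. By these transcripts WT replicate 3 had the female pattern and the other 8 libraries the male pattern. Sex was thus not balanced between WT and the knockout groups, and its part in the comparisons was not tested. Long transcripts were also relatively depleted in knockout libraries: the log2 level of long against short genes was -0.21 to 0.19 in betaine-supplemented knockout, -0.38 to -0.24 in knockout and 0.20 to 0.42 in WT libraries. Where leaving out WT replicate 3 or removing the trend on exon length ended a call described here, that is said beside it.

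The order of levels was similar at its ends and different in its middle. These levels keep the trend on exon length, which differed between groups. Cebpa had the highest mean of the 9 in every group, at 202 ± 1.14 FPKM in betaine-supplemented knockout, 221 ± 30.1 FPKM in knockout and 188 ± 77.6 FPKM in WT livers. Onecut1 was the least abundant, at 1.93 ± 1.67, 2.62 ± 1.01 and 2.85 ± 1.57 FPKM in the same groups. Hnf4a and Cebpb followed Cebpa, with ranges that overlapped each other in each group. In WT livers both also overlapped Cebpa, and in WT replicate 3 Cebpa at 98.7 FPKM was below Hnf4a at 211 FPKM and Cebpb at 234 FPKM. Foxa3 and Foxa2 changed places. In WT livers Foxa3 stood at 38.7 ± 8.64 FPKM, above Prox1 at 12.4 ± 4.21 FPKM and Foxa2 at 11.7 ± 3.83 FPKM with no overlap between Foxa3 and Prox1. In knockout livers Foxa2 averaged 27.0 ± 6.59 FPKM and Foxa3 24.0 ± 2.74 FPKM, and in betaine-supplemented knockout livers they averaged 15.0 ± 3.99 and 14.5 ± 2.94 FPKM, with overlapping ranges both times.

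**Figure D1:**
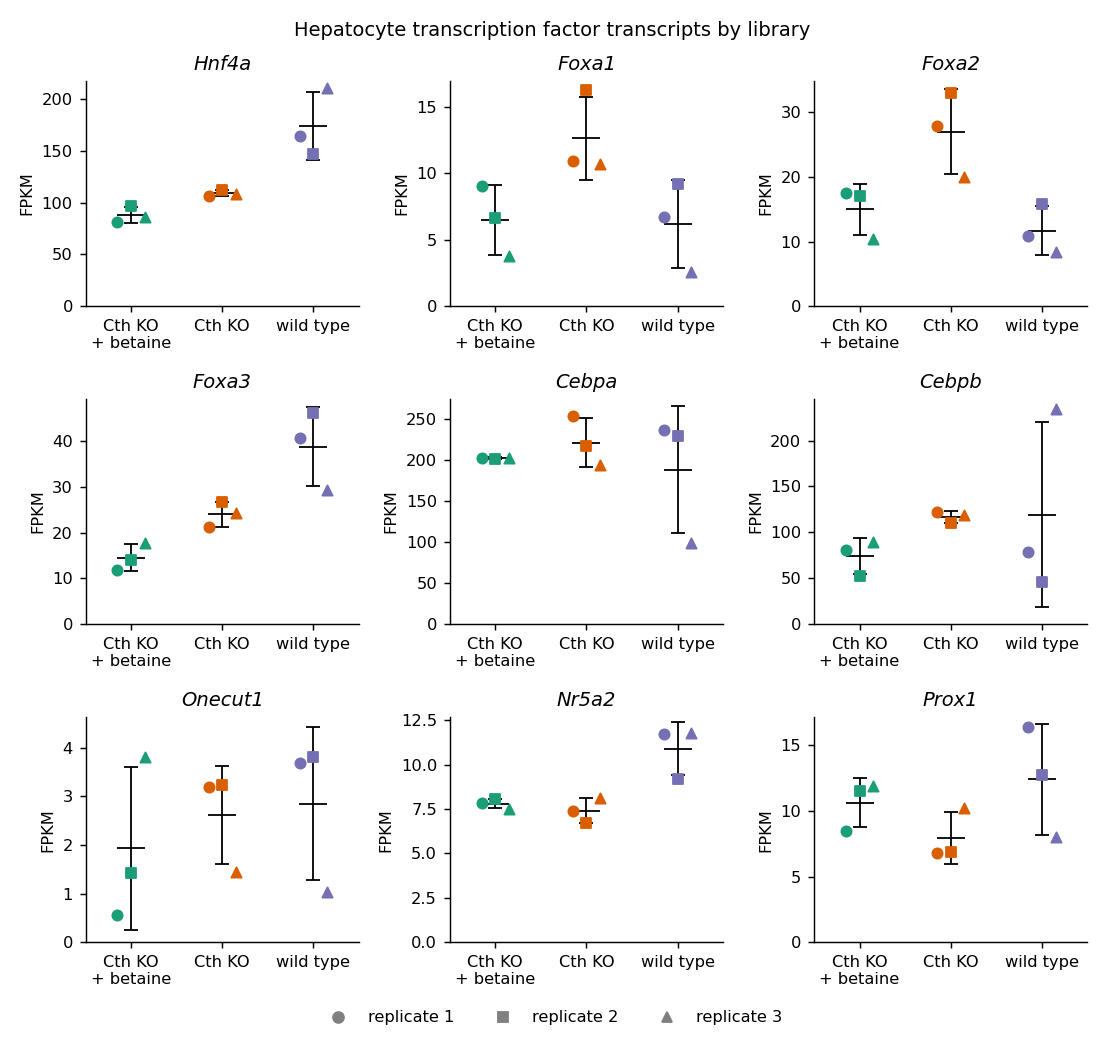
FPKM of the 9 transcription factor transcripts in each library. Groups run from betaine-supplemented Cth knockout to Cth knockout to wild type on the horizontal axis, the vertical axis is linear FPKM, symbols give the replicate, and black bars give the mean ± SD of 3 libraries. Hnf4a and Foxa3 are below wild type in both knockout groups without overlap, Foxa2 is above wild type in the knockout group, and the third wild-type library lies far from the other two for Cebpa and Cebpb.

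Of the 9 transcripts, 4 differed between knockout and WT livers, and they did not move one way: Hnf4a, Foxa3 and Nr5a2 fell and Foxa2 rose. Such calls were common, since 25.6% of the 11852 tested genes passed (limma moderated test on log2(FPKM + 0.5), Benjamini-Hochberg adjusted p under 0.05), 12.8% higher and 12.7% lower. Of the called genes 50.1% were higher, a split that was 13.8% of 4262 calls after rescaling each library to a common FPKM sum, which moved the median of all genes by -0.37, and 37.4% of 3114 calls on each library's own read total. The 4 called members kept their direction in all 24 settings. The 9 genes had a median log2 fold change of -0.02, beside 0.02 over all genes tested. Groups did not overlap for 5 of the 9, the 4 called and Foxa1, against 46.8% of all genes. With replicate 3 of WT left out, 6 of the 9 passed, 2 higher and 4 lower, against 21.6% of all genes. Other omissions lowered the count. Without knockout replicate 2 none of the 4 called members kept its call (limma adjusted p = 0.0582 to 0.0852). Without WT replicate 1 Foxa2, Foxa3 and Nr5a2 lost theirs (limma adjusted p = 0.0517, 0.106 and 0.0679).

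Hnf4a encodes a nuclear receptor that occupies the promoters of many liver genes. It was at 107, 112 and 109 FPKM in knockout livers and at 165, 147 and 211 FPKM in WT livers. Every knockout value lay below every WT value, and the knockout libraries were tightly grouped. The log2 fold change was -0.66 ± 0.15 (SE, adjusted p = 0.0161, limma). The call was lost without knockout replicate 2 (log2 fold change -0.67, adjusted p = 0.0582) and without knockout replicate 3 (-0.65, adjusted p = 0.0505), with little movement in its size. Without WT replicate 3 the log2 fold change was -0.51 (adjusted p = 0.0261), and with the trend on exon length removed it was -0.52 (adjusted p = 0.0318). With both changes it was -0.39 (adjusted p = 0.0484). The highest adjusted p over all 24 settings was 0.0640. Its antisense neighbour Hnf4aos, which shares no exon base with it, averaged 8.41 ± 2.85 FPKM in knockout and 5.97 ± 2.41 FPKM in WT livers and did not pass (adjusted p = 0.394).

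The 3 FOXA genes had different patterns. Foxa2, the paralogue also known for roles in fasting metabolism and bile acid handling, was at 28.0, 33.0 and 19.97 FPKM in knockout livers against 10.8, 15.9 and 8.35 FPKM in WT livers. All knockout values exceeded all WT values. It rose by 1.19 ± 0.28 on the log2 scale (SE, adjusted p = 0.0173, limma). The rise was 1.15 without knockout replicate 1 (adjusted p = 0.0514), 1.03 without knockout replicate 2 (0.0711) and 1.162 without WT replicate 1 (0.0517), and these 3 fits missed the threshold. It was 0.98 without WT replicate 3 (adjusted p = 0.0417). With that library left out and the trend on exon length removed as well, the rise was 0.86 and missed the threshold (adjusted p = 0.0747).

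Foxa3, the most abundant FOXA transcript of the WT livers, was at 21.2, 26.6 and 24.2 FPKM in knockout livers and at 40.7, 46.2 and 29.3 FPKM in WT livers. The groups did not overlap, although WT replicate 3 came close to the knockout range. It fell by 0.66 on the log2 scale (SE 0.20, adjusted p = 0.0394, limma). This call was less stable, since 3 of the 9 fits that each left out 1 library kept it. It missed the threshold without knockout replicates 1, 2 or 3 (adjusted p = 0.115, 0.0771 and 0.0914), without WT replicates 1 or 2 (0.106 each) and without betaine replicate 2 (0.0522), at log2 fold changes of -0.74 to -0.52. It was also lost when no filter on low values was applied (0.0904). Without WT replicate 3 the log2 fold change was -0.85 (adjusted p = 0.0162).

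Foxa1 was at 10.9, 16.3 and 10.7 FPKM in knockout livers and at 6.72, 9.18 and 2.59 FPKM in WT livers. These ranges did not overlap either, but WT replicate 3 was far below the other WT libraries. The log2 fold change of 1.10 ± 0.43 missed the threshold (SE, adjusted p = 0.0885, limma). It was 0.63 without WT replicate 3 (adjusted p = 0.202) and 1.45 without WT replicate 2, a fit that passed (adjusted p = 0.0478).

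Nr5a2, which encodes a regulator of bile acid and cholesterol genes, was at 7.40, 6.74 and 8.10 FPKM in knockout livers and at 11.7, 9.19 and 11.8 FPKM in WT livers. The groups did not overlap. It fell by 0.52 on the log2 scale (SE 0.13, adjusted p = 0.0201, limma). Nr5a2 has 5899 bases of exon sequence, which puts it among the long genes. With the length trend removed the log2 fold change was -0.31 and missed the threshold (adjusted p = 0.0972). It also missed it without knockout replicate 1 (-0.52, adjusted p = 0.0532), knockout replicate 2 (-0.46, 0.0852) or WT replicate 1 (-0.47, 0.0679), and without WT replicate 3 it was -0.46 (0.0451).

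The length trend itself was measured over all genes. The 3950 tested genes with exons of at most 2677 bases had a median log2 fold change of 0.35 in knockout against WT livers, and 950 were called higher and 111 lower. The 3949 genes over 5244 bases had a median of -0.25, with 152 called higher and 957 lower. Foxa3 at 2037 bases and Foxa2 at 2370 bases are short genes that moved in opposite directions, and with the trend removed their log2 fold changes were -0.86 (adjusted p = 0.0208) and 1.04 (adjusted p = 0.0328). Hnf4a has 4828 bases and Prox1 8390 bases.

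Both C/EBP genes were dominated by a single library. Cebpa, which sustains gluconeogenic and urea cycle genes, was at 253, 217 and 193 FPKM in knockout livers and at 236, 230 and 98.7 FPKM in WT livers. Cebpb, the acute phase and injury-responsive paralogue, was at 122, 110 and 119 FPKM in knockout livers and at 78.1, 45.8 and 234 FPKM in WT livers. WT replicate 3 was thus the lowest of all 9 libraries for Cebpa and the highest for Cebpb. The log2 fold changes were 0.33 ± 0.30 for Cebpa and 0.31 ± 0.50 for Cebpb (SE), and neither passed (adjusted p = 0.437 and 0.674, limma). Without that library Cebpa was at -0.08 (adjusted p = 0.695) and Cebpb at 0.96, past the threshold (adjusted p = 0.0364). On the opposite strand, Tmem189 shares 312 bases, 20.7% of the exons of Cebpb, and the labels state no strand. It was at 1.69 to 4.23 FPKM over the 9 libraries. On the opposite strand of Cebpa, Gm45091 shares 51 bases with it, 1.94% of its exons.

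Prox1, a homeodomain factor of hepatoblasts that also marks lymphatic endothelium, was at 6.77, 6.85 and 10.2 FPKM in knockout livers and at 16.4, 12.8 and 8.03 FPKM in WT livers. WT replicate 3 fell inside the knockout range and the other 2 WT libraries above it. The log2 fold change was -0.58 ± 0.26 (SE, adjusted p = 0.129, limma), and without WT replicate 3 it was -0.85 and passed (adjusted p = 0.0277). With the length trend removed over all 9 libraries it was -0.27 (adjusted p = 0.489). Its antisense gene Prox1os shares 133 of its exon bases and was at 2.94 to 8.53 FPKM. Of the endothelial and lymphatic markers, 2 of 7 tested fell in knockout livers (Ptprb and Kdr). The 8 listed summed to 23.0 to 29.7 FPKM in knockout and 31.1 to 56.4 FPKM in WT livers. Without WT replicate 3, or with the length trend removed, none of the 7 passed in limma, and their part in the Prox1 values was not tested.

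Onecut1, which acts in bile duct and hepatocyte development, was at 3.18, 3.22 and 1.45 FPKM in knockout livers and at 3.69, 3.82 and 1.04 FPKM in WT livers. One library of each group was low, the ranges overlapped and the log2 fold change was -0.02 ± 0.57 (SE, adjusted p = 0.986, limma). It had 39 to 251 reads per library, the fewest of the 9. Gm20649 shares 2171 bases with it on the same strand, 52.8% of its exons, and is listed at 0 in every library, so the Onecut1 level is uncertain where the authors' counting set aside shared reads.

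**Figure D2:**
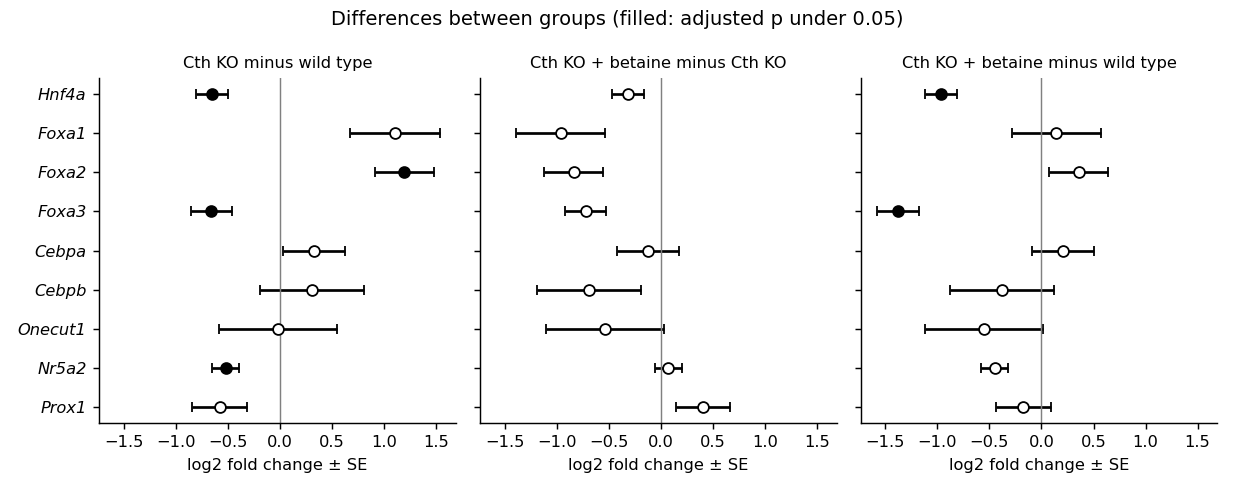
Log2 fold change ± SE of the 9 transcripts in the 3 comparisons, from limma over 9 libraries; filled points have an adjusted p under 0.05. Foxa2 is above 0 and Hnf4a, Foxa3 and Nr5a2 below 0 in Cth knockout minus wild type, no point is filled in betaine-supplemented knockout minus knockout, and Hnf4a and Foxa3 are filled in betaine-supplemented knockout minus wild type.

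None of the 9 genes passed the test between betaine-supplemented and unsupplemented knockout livers (limma), and 2 of them, Foxa3 and Foxa2, had an unadjusted p under 0.05. Few genes of any kind passed here, 0.0422% of those tested, 0.0169% higher and 0.0253% lower, with 2672 at an unadjusted p under 0.05. Rescaling to a common sum called 1754 genes, 95.8% of them higher, against 40.0% of the 5, and each library's own read total called 70, with 81.4% higher. That background moved with single libraries, from 5 called genes to 882 without betaine replicate 1 and 273 without WT replicate 3, and still no member passed in either fit. On the deposited scaling, values of 5 of the 9 genes did not overlap between the groups, and all 5 were lower with betaine. This stands beside 30.3% of all tested genes without overlap in either direction. The median log2 fold change was -0.53 for the 9 genes and 0.00 for all genes. FPKM summed to 379601 to 477667 per library with betaine and 533733 to 584197 in knockout livers. Rescaling to a common sum moved the median of all genes by 0.33, and overlap was not counted on any other scaling.

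These 5 genes were Hnf4a, Foxa1, Foxa2, Foxa3 and Cebpb. Foxa3 was at 11.8, 14.0 and 17.6 FPKM with betaine against 21.2, 26.6 and 24.2 FPKM in knockout livers, a log2 fold change of -0.72 ± 0.20 (SE, adjusted p = 0.106, limma). Foxa2 was at 17.6, 16.99 and 10.4 FPKM with betaine against 28.0, 33.0 and 19.97 FPKM without, a log2 fold change of -0.83 ± 0.28 (adjusted p = 0.142, limma). The third betaine library was the lowest for Foxa2 and the highest for Foxa3.

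Foxa1 was at 9.03, 6.62 and 3.78 FPKM with betaine and had a log2 fold change of -0.96 ± 0.43 (SE, adjusted p = 0.226, limma). Hnf4a was at 81.7, 96.5 and 85.8 FPKM with betaine and had -0.31 ± 0.15 (SE, adjusted p = 0.257, limma). Cebpb was at 81.3, 52.1 and 89.4 FPKM with betaine and had -0.69 ± 0.50 (SE, adjusted p = 0.439, limma). None of these 3 differences passed after adjustment. When FPKM were rescaled to a common sum per library, the median of all genes moved by 0.33 in this comparison and the log2 fold change of Hnf4a turned to 0.05, so its direction rests on the scaling. Under the same rescaling Foxa3 was at -0.37, Foxa2 at -0.48, Foxa1 at -0.64 and Cebpb at -0.33.

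The remaining 4 genes had overlapping groups. Cebpa was nearly constant with betaine, at 202, 201 and 203 FPKM, inside the knockout range, and its log2 fold change was -0.12 ± 0.30 (SE, adjusted p = 0.839, limma). Nr5a2 was at 7.83, 8.04 and 7.52 FPKM with betaine, again inside the knockout range, at a log2 fold change of 0.07 ± 0.13 (adjusted p = 0.776, limma). Prox1 was at 8.48, 11.5 and 11.9 FPKM with betaine and Onecut1 at 0.563, 1.43 and 3.798 FPKM. Onecut1 thus varied more among the betaine libraries than between groups.

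Against WT livers, betaine-supplemented knockout livers had lower Hnf4a and Foxa3 and no other member passed the test. The background was 11.7% of genes called, 5.87% higher and 5.78% lower. Of these calls 50.4% were higher, and 69.6% of 1515 calls on each library's own read total. The 9 genes had a median log2 fold change of -0.38, beside 0.00 for all genes. Hnf4a had a log2 fold change of -0.97 ± 0.15 (SE, adjusted p = 0.00861) and Foxa3 of -1.38 ± 0.20 (SE, adjusted p = 0.0073, limma). Each kept its call in all 24 settings, which include the 9 fits that left out 1 library each, with log2 fold changes of -1.12 to -0.79 for Hnf4a and -1.68 to -1.24 for Foxa3. Groups did not overlap for Hnf4a, Foxa3 and Nr5a2, 3 of the 9, against 32.2% of all genes.

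Nr5a2 came next, with a log2 fold change of -0.45 ± 0.13 that missed the threshold (SE, adjusted p = 0.0538, limma) and passed without WT replicate 2 (-0.56, adjusted p = 0.0447). Foxa2, which was higher than WT in knockout livers, had a log2 fold change of 0.36 ± 0.28 here, with overlapping groups (SE, adjusted p = 0.426, limma). Foxa1 was at 0.14 ± 0.43 (SE, adjusted p = 0.851, limma). The comparisons share libraries: the knockout livers enter both the knockout and the betaine comparison, and the WT livers both comparisons against WT, so agreement or opposition of signs between them is not independent.

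Ratios of 2 transcripts within a library do not depend on how that library was scaled. They do keep the trend on exon length, which was left in here, and Foxa2 has 2370, Foxa3 2037 and Hnf4a 4828 bases. With it removed, the knockout minus WT log2 fold changes were 1.04 for Foxa2, -0.86 for Foxa3 and -0.52 for Hnf4a. The ratio of Foxa2 to Foxa3 was 1.49, 1.21 and 0.590 in betaine-supplemented knockout livers, 1.32, 1.24 and 0.826 in knockout livers and 0.266, 0.343 and 0.285 in WT livers. Both knockout groups lay wholly above WT. Without betaine that followed from the values above, since every knockout library had more Foxa2 and less Foxa3 than every WT library. The ratio without betaine is therefore not a further result. The log2 differences from WT were 1.78 with betaine and 1.90 without, each with an exact permutation p of 0.1, two-sided, the smallest that 3 libraries against 3 can give and so unable to reach 0.05. They ranged from 1.51 to 2.18 and from 1.77 to 2.11 when 1 library was left out.

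The ratio of Foxa2 to Hnf4a was likewise higher in both knockout groups, at 0.215, 0.176 and 0.121 with betaine and 0.262, 0.295 and 0.184 without, against 0.0657, 0.108 and 0.0396 in WT livers. The log2 differences from WT were 1.34 and 1.89, again at the exact permutation p of 0.1. Without betaine this separation too was fixed by the separate values of Foxa2 and Hnf4a, neither of which overlapped WT. By contrast, the ratio of Foxa2 to Foxa1 overlapped between all groups, at 1.95 to 2.75 with betaine, 1.87 to 2.56 in knockout and 1.61 to 3.22 in WT livers (exact permutation p = 0.9 for knockout against WT). The ratio of Cebpb to Cebpa was 0.401, 0.260 and 0.440 with betaine and 0.483, 0.507 and 0.616 in knockout livers, without overlap (log2 difference -0.57, exact permutation p = 0.1). In WT livers it was 0.331, 0.199 and 2.37, and the third library had the highest value of all 9. In all, 12 ratio comparisons were made.

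**Figure D3:**
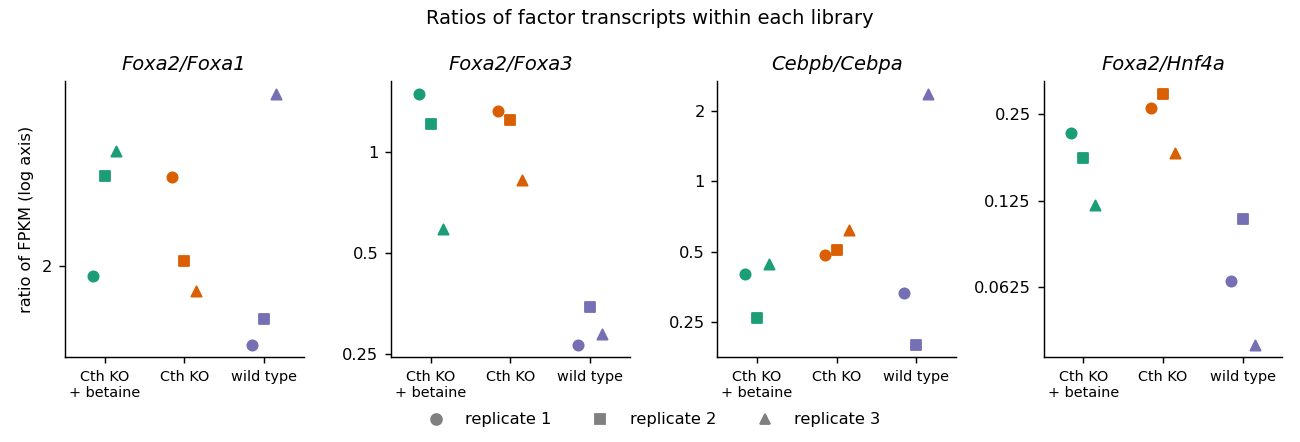
Ratios of FPKM between pairs of the 9 transcripts within each library, on log axes with a separate scale per panel. Points are libraries and symbols give the replicate. Foxa2/Foxa3 lies between 0.590 and 1.49 in the 6 knockout libraries, with or without betaine, and between 0.266 and 0.343 in the 3 wild-type libraries, while the third wild-type library has a Cebpb/Cebpa ratio of 2.37.

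Transcripts most like each of the 4 called genes were found by Pearson correlation of log2(FPKM + 0.5) over the 9 libraries, among 4596 genes that averaged 5 FPKM or more. The libraries share their groups and their depth, so these are descriptions. Nearest to Hnf4a were the autophagy kinase gene Ulk1 (r = 0.981), the cytokine-responsive transcription factor gene Stat3 (0.968) and Wbp1l (0.965). Foxa2 was nearest to Drap1 (r = 0.945), which encodes a subunit of a general transcription repressor, the mitochondrial tRNA gene mt-Tl2 (0.929) and Dexi (0.922). For Foxa3 they were Hsdl2 (r = 0.944), the cAMP-responsive factor gene Crem (0.940) and Tbc1d20 (0.938). Nr5a2 was nearest to the nuclear receptor gene Rora (r = 0.961), the tryptophan-degrading Tdo2 (0.958) and the transporter gene Abca8b (0.953).

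Other transcription factors of liver were set beside the 9. Of 28 tested, 6 fell and 1 rose in knockout against WT livers, with a median log2 fold change of -0.07. These counts stand beside 12.7% of all tested genes called lower and 12.8% called higher. Ppara, the receptor that drives fatty acid oxidation genes in fasting, changed most among them, at 5.02 ± 1.159 FPKM in knockout and 26.0 ± 5.31 FPKM in WT livers (log2 fold change -2.26, adjusted p = 0.00546, limma), and all 9 fits that left out 1 library kept that call. Its partner Rxra was at 53.7 ± 5.05 FPKM in knockout and 86.8 ± 5.19 FPKM in WT livers (-0.69, adjusted p = 0.0159, kept in 6 of those 9 fits). Gata6 (log2 fold change -1.05), Nfix (-0.50), Cebpg (-0.52) and Foxo1 (-1.09) made up the other falls, and their calls were kept in 8, 4, 4 and 3 of the 9 fits. Foxo1 was at -0.61 without WT replicate 3 (adjusted p = 0.0164, limma). With the length trend removed Nfix was at -0.22, Cebpg at -0.33 and Foxo1 at -0.78, and none of these 3 passed (adjusted p = 0.258, 0.181 and 0.116). Nr1h3, the oxysterol receptor LXR-alpha, was the gene that rose (0.44, adjusted p = 0.0465) and was named after its value was seen. It was kept in 2 of the 9 fits, and not without WT replicate 3 (adjusted p = 0.0966) or with the length trend removed (0.118). In all, 3 of the 28 fell and none rose in limma with that trend removed.

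With betaine, 5 of the 28 were lower than in WT livers and none was higher in limma, with a median log2 fold change of -0.22, beside 5.78% of all tested genes lower and 5.87% higher. Cebpg, a C/EBP family member of the stress response, was at 5.80 ± 0.392 FPKM with betaine and 12.5 ± 2.07 FPKM in WT livers (log2 fold change -1.03, adjusted p = 0.00767, limma, kept in all 9 fits without 1 library). Ppara (-1.46), Foxo1 (-1.37), Rxra (-0.60) and the clock-controlled Tef (-0.65) were the others, kept in 7, 3, 2 and 3 of those fits. With the length trend removed Foxo1, Rxra and Tef missed the threshold (adjusted p = 0.0513, 0.0574 and 0.119), and without WT replicate 3 Foxo1 was at -0.89 and passed (0.00670). None of the 28 passed between betaine-supplemented and unsupplemented knockout livers in limma. Without WT replicate 3 the counts were 8 lower in knockout, 1 lower with betaine against knockout, and 8 lower with betaine against WT, with none higher.

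**Figure D4:**
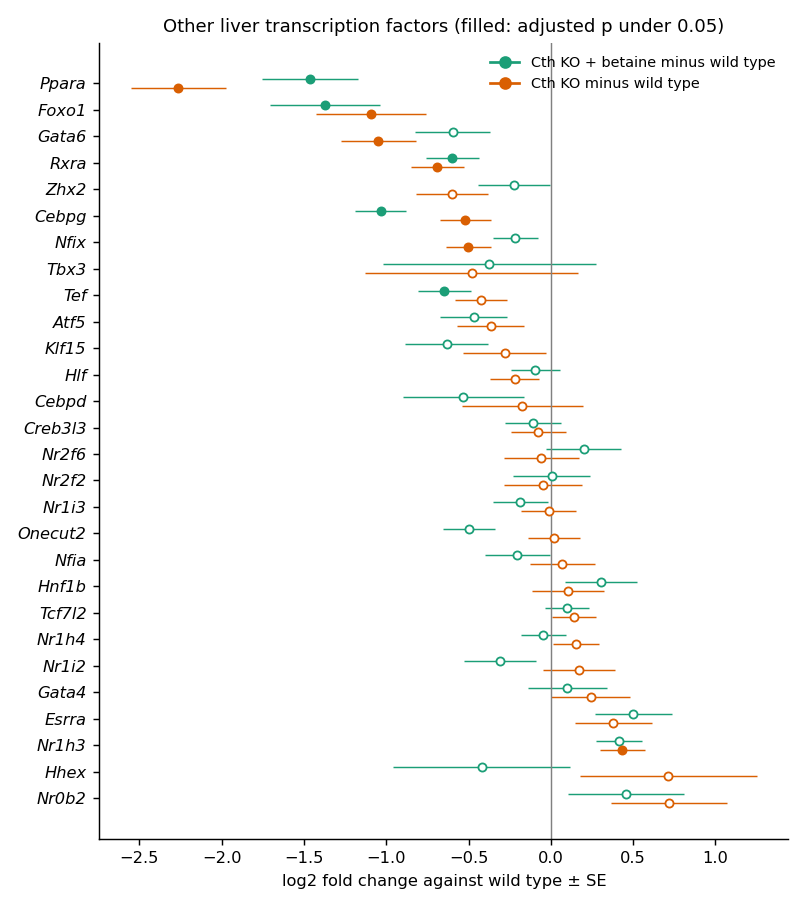
Log2 fold change ± SE against wild type of 28 other liver transcription factor transcripts, green for betaine-supplemented Cth knockout and orange for Cth knockout, ordered by the orange value. Filled points have an adjusted p under 0.05. Ppara has the most negative orange value at -2.26, and Nr1h3 is the filled point above 0.

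Genes known as targets of the 9 factors were counted list by list, against 25.6% of all tested genes called in knockout minus WT and 11.7% in betaine minus WT. Among 20 HNF4A targets, 3 rose and 4 fell in knockout against WT livers, with a median log2 fold change of -0.03. The falls were Ppara, the apolipoprotein gene Apob (267 ± 37.7 FPKM in knockout and 557 ± 92.4 FPKM in WT livers, log2 fold change -1.06), Apom (-1.24) and the lipid transfer gene Mttp (-0.54). Those of Apob and Apom were kept in all 9 fits without 1 library, and that of Mttp in 5. The rises were Apoa2 (0.92), Apoc3 (1.00) and the urea cycle gene Otc (0.50), kept in 3, 5 and 3 of the fits, and Apoc3 and Otc were named after their values were seen. There were 0 rises and 4 falls without WT replicate 3 in limma. Removal of the length trend left 1 rise, that of Otc, and 3 falls. Apoa2 was then at 0.42, Apoc3 at 0.62 and Mttp at -0.32, none of which passed (adjusted p = 0.169, 0.0930 and 0.0939), and Apob was at -0.69 and passed (0.0376). Of the 20, only Ppara was called with betaine against WT.

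Among 8 FOXA targets, 1 fell in knockout livers, and it was Hnf4a itself. The median log2 fold change of the 8 was -0.60 in knockout against WT livers, and -0.41 without WT replicate 3. With betaine against WT, Hnf4a and the gluconeogenic Pck1 (285 ± 174 FPKM with betaine and 1135 ± 501 FPKM in WT livers, log2 fold change -2.11, adjusted p = 0.0366) were lower and Afp (0.75, adjusted p = 0.0261) was higher. The Pck1 call was kept in 3 of the 9 fits without 1 library and was lost, among others, without WT replicate 3 (-1.84, adjusted p = 0.0812). Afp, the fetal albumin homologue, was at 1.12 ± 0.0828 FPKM with betaine and 0.468 ± 0.105 FPKM in WT livers, and it lost its call without betaine replicates 1 or 3 or WT replicate 1 (adjusted p = 0.0740, 0.0799 and 0.0796). The transcripts of albumin (Alb) and transthyretin (Ttr) passed in none of the 3 comparisons over 9 libraries. Alb was at 22056 ± 4222 FPKM with betaine and 25734 ± 3822 FPKM in knockout livers, against 38321 ± 11115 FPKM in WT livers. Its values in each knockout group did not overlap those in WT. With betaine against WT, Alb passed with the length trend removed (-0.90, limma adjusted p = 0.0433) and not without WT replicate 3 (-0.55, 0.124). The 8 C/EBP-alpha targets included 1 fall in knockout livers, that of the urea cycle gene Cps1 at 292 ± 59.7 FPKM in knockout and 806 ± 287 FPKM in WT livers (-1.42, adjusted p = 0.0135, lost without knockout replicate 2 at 0.0588), and their median was -0.74, or -0.47 without WT replicate 3, beside 0.02 over all genes.

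Acute phase targets of C/EBP-beta had calls in both comparisons against WT. Of 11, 2 rose and 1 fell in knockout livers (median log2 fold change 0.54), and 3 rose and 1 fell with betaine against WT (median 0.15), beside the same shares of 25.6% and 11.7% over all genes. The counts in knockout livers were 3 higher and 0 lower without WT replicate 3 in limma. After removal of the length trend 1 rose and 1 fell in each comparison. Orm1, an acute phase glycoprotein gene, was at 1143 ± 262 FPKM with betaine and 1379 ± 116 FPKM in knockout livers, against 663 ± 21.1 FPKM in WT livers. Its log2 fold changes from WT were 0.76 (adjusted p = 0.0288) and 1.05 (adjusted p = 0.00678). Orm2 was at 58.2 ± 16.9 FPKM with betaine and 38.3 ± 6.52 FPKM in knockout livers, against 15.4 ± 3.39 FPKM in WT livers (log2 fold changes 1.87 and 1.30), and both Orm2 calls were kept in every fit without 1 library, while those of Orm1 were kept in 4 of 9 with betaine and 9 of 9 without. With the length trend removed the Orm1 call with betaine (0.56, adjusted p = 0.0631) and the Orm2 call in knockout livers (0.86, 0.0512) were lost. Saa1 with betaine was 192 ± 194 FPKM, against 16.8 ± 4.57 FPKM in WT livers, and its call was kept in 2 of 9 fits without 1 library, and lost without WT replicate 3 (adjusted p = 0.0786) and with the length trend removed (0.0595). Crp fell in both, by 0.66 with betaine and by 0.45 in knockout livers on the log2 scale, kept in 6 and 2 of the fits, and the knockout call was lost without WT replicate 3 (-0.34, adjusted p = 0.104). Among 11 targets of NR5A2 and ONECUT1, Apom fell in knockout livers, and with betaine Pck1 was lower and Afp higher than in WT. Of 8 fetal and progenitor markers 2 were tested, Igf2 and Lin28b were at 0 in every library, and Afp was the only call, with betaine against WT.

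Markers of hepatocytes and of other cell types were counted the same way. Of the hepatocyte markers, 2 rose (Serpina1c and Apoa1) and 2 fell (Cps1 and Apob) in knockout livers out of 10, and none passed with betaine against WT or against knockout livers in limma. With the length trend removed 1 of the 10, Alb, was lower with betaine than in WT. Apoa1 was kept in 2 of the 9 fits without 1 library, and not without WT replicate 3 (adjusted p = 0.0720, leaving 1 rise and 2 falls) or with the length trend removed (0.47, 0.143). The 8 cholangiocyte markers summed to 29.6 to 51.8 FPKM with betaine, 33.3 to 56.6 FPKM in knockout and 33.6 to 54.7 FPKM in WT livers. Of these 6 were tested, and none passed in any comparison over 9 libraries. Without WT replicate 3, 1 was lower in each knockout group than in WT in limma. Of 9 leukocyte markers 6 were tested, and none passed in any comparison, with or without WT replicate 3. The 9 summed to 68.2 to 154, 85.3 to 105 and 103 to 148 FPKM in the same groups. Clec4g was the 1 endothelial marker lower with betaine than in WT (-0.55, kept in 1 of the 9 fits and lost without WT replicate 3 at an adjusted p of 0.0921). Of 8 stellate cell markers none passed over 9 libraries, and 2 were higher in each knockout group than in WT without WT replicate 3. Of 10 pancreas and gut markers 6 were at 0 in every library (Cpa1, Amy2a5, Pnlip, Ins2, Gcg and Cdx2). Cela1, an elastase gene of the same list, rose in both knockout groups, with log2 fold changes of 0.79 with betaine and 1.03 without. The part of these shifts in the values of the 9 factors was not tested.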

How the data were processed

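Poly-A RNA of mouse liver was sequenced in 9 libraries of an NEBNext Ultra kit, per the labels' protocols. The deposited table gives FPKM per gene and library, a value the authors scaled before deposition. HISAT2 2.0.5, featureCounts 1.5.0-p3, DESeq2 1.16.1 and genome build mm10 are named without roles per the submitters' processing notes. Gene symbols and union exon lengths were read from GENCODE M21, which uses the mm10 assembly (GRCm38). Dividing by these lengths, 98.3% to 98.6% of values of at most 20 reads lay within 0.05 of a whole read. A count of 3 reads in 1 kb is 0.162 to 0.222 FPKM, for counting error only.

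Genes averaging 0.5 FPKM or more were tested on log2(FPKM + 0.5), where fold changes of low genes are understated. The 9 libraries entered 1 limma model (version 3.58.1, R 4.3.3; eBayes with trend and robust), tested two-sided, with Benjamini-Hochberg adjustment over 11852 genes per comparison and a threshold of 0.05. Ratios used exact permutation tests. The fit was checked on simulated data. Figures and joins used Python 3.11.15, numpy 2.4.6, pandas 2.3.3, scipy 1.17.1 and matplotlib 3.10.9. The 9 genes, the 13 other lists, the ratios and the motifs were chosen with earlier results of these data known. Named genes were the 9, Cth, overlapping genes, up to 4 called genes per list and comparison by smallest p (or up to 2 of the most abundant where none passed), and the 3 nearest transcripts of each called member. Alternatives changed the pseudocount, filter, scaling, variance model, length trend, samples and replicate block. Some items are not reported here.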

Additional observations from a re-analysis of the deposited data

How the results depend on the processing

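In knockout minus WT, 3029 genes, 4 members and 22 listed genes were called over 9 libraries. These counts were 1865, 3 and 11 with no filter, 12 listed genes with the length trend removed and 36 after TPM rescaling, 1795 genes and 2 members without WT replicate 3 and with the trend removed, and 897 to 3243 genes, 0 to 6 members and 7 to 26 listed genes when 1 library was left out, lowest without knockout replicate 2 (without WT replicate 1, 1808 genes and 1 member). In betaine minus knockout, 5 genes and 0 listed genes were called, against 1 with no filter, 0 with no variance trend, 29 in the fit of only those groups, 70 on each library's own read total, 8 and 10 at pseudocounts of 0.1 and 1, 1754 genes and 9 listed genes after TPM rescaling, 165 and 1 without WT replicate 3 and with the trend removed, and 0 to 882 genes and 0 to 5 listed genes when 1 library was left out, highest without betaine replicate 1. In betaine minus WT, 1381 genes and 13 listed genes became 531 and 4 with no filter, 360 and 2 in the fit of only those groups, and 347 to 1439 and 3 to 18 when 1 library was left out, lowest without betaine replicate 3. The member count of 2 in that comparison was 2 or 3 throughout.

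No pairing by replicate number was seen. Same-numbered libraries deviated from their group means with correlations of -0.23 to 0.10, and 1 of 9 libraries correlated best with its own number. With so few libraries a group, these correlations cannot decide whether the samples were paired. With the number as a replicate block Foxa1 was called in place of Foxa3 in knockout minus WT (limma adjusted p = 0.0356 and 0.0633), 0 genes were called in betaine minus knockout and 671 genes and 6 listed genes in betaine minus WT. With the block and the length trend removed the counts were 1168 genes, 2 members and 7 listed genes in knockout minus WT, 0 genes in betaine minus knockout, and 461 genes and 5 listed genes in betaine minus WT.

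The sign of members that passed no test moved around 0. In knockout minus WT, Onecut1 (-0.02) was 0.049 with the trend removed, with or without the block, 0.039 under median centring, 0.042 under quantile normalization, 0.0028 at a pseudocount of 0.1 and -0.51 to 0.29 when 1 library was left out. Cebpa (0.33) was -0.18 without WT replicate 3 and with the trend removed, -0.092 after TPM rescaling and -0.084 to 0.54 when 1 library was left out. Cebpb (0.31) was -0.0049 under quantile normalization, -0.11 after TPM rescaling and -0.21 to 0.96 when 1 library was left out. In betaine minus knockout, Nr5a2 (0.07) was -0.035 with the trend removed, with or without the block, and -0.037 with WT replicate 3 left out too, Cebpa (-0.12) was 0.069 on the own read total, 0.12 under quantile normalization and 0.25 after TPM rescaling, and Hnf4a (-0.31) was 0.053 after TPM rescaling. In betaine minus WT, Prox1 (-0.17) was 0.016 with the trend removed, with or without the block, and -0.44 to 0.050 when 1 library was left out. Without WT replicate 3 and with the trend removed, Foxa1 (0.14) was -0.39, Cebpa (0.21) -0.29 and Cebpb (-0.38) 0.14. When 1 library was left out they were -0.34 to 0.49, -0.20 to 0.42 and -0.90 to 0.27. Log2 ratio differences under the same omissions were -0.74 to 1.05 for Cebpb/Cebpa and -0.15 to 0.35 for Foxa2/Foxa1 in knockout minus WT, -0.39 to 0.28 for Foxa2/Foxa3 in betaine minus knockout and -1.31 to 0.48 for Cebpb/Cebpa in betaine minus WT. The causes were not tested.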
